A study of Mus musculus with 2 samples.

Results

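Granzymes, perforin and the proteins made beside them are the tools with which natural killer (NK) cells and cytotoxic T cells kill other cells. The 7 genes described here are the granzyme genes Gzma, Gzmb, Gzmc and Gzmk, the perforin gene Prf1, the granule membrane gene Nkg7 and the chemokine gene Xcl1, chosen by name from the gene symbols of the series. All 7 were found among the 32285 genes counted. They were followed through single cells sorted as CD45-positive from mouse brain, in cell classes set by markers that include none of the 7.

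The series holds 2 droplet single-cell RNA libraries, 1 of CD45-negative and 1 of CD45-positive brain cells, both from C57BL mice aged 8 to 13 weeks. The mice are named as a model resembling neuromyelitis optica spectrum disorder (NMOSD), an autoimmune disease in which antibodies attack the astrocyte water channel aquaporin-4, and the sample titles give a time of 24 h. The sources used here do not give how the state was induced, what the time is counted from or how many mice entered each library. CD45 is the surface protein of nearly all blood-derived cells and of microglia, the resident macrophages of the brain. Both libraries carry the disease label and no library of unaffected mice was analysed here, so nothing below compares disease with health. With 1 library on each side of the sort there is no replicate, and no test across conditions was made. Each interval is at the 95% level and reflects the counting of UMIs alone, not the spread between animals.

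Killing through granules needs several of these products at once. Perforin forms pores that let granzymes, which are serine proteases, reach the inside of the target cell. Granzyme B cleaves caspases and their substrates and so drives apoptosis. Granzyme A acts by other routes and cleaves gasdermin B in human cells, granzyme K is related to it, and granzyme C belongs to the gene cluster of granzyme B in the mouse. Nkg7 sits in the membrane of the granules and takes part in their release. Xcl1, or lymphotactin, is secreted and draws in dendritic cells that carry its receptor Xcr1. In the brain, NK and T cells of this kind are rare in health and enter during inflammation.

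The CD45-positive library held 8662 barcodes, of which 8432 passed the filters, with a median of 6088.5 UMIs per cell (a UMI, or unique molecular identifier, marks 1 captured transcript). A cell was called NK when it carried UMIs of at least 2 of 6 NK markers (Ncr1, Klrb1c, Klre1, Klri2, Klra4, Klra8) and T when it carried at least 2 of 4 T cell receptor markers (Cd3d, Cd3e, Cd3g, Trac). CD8 and CD4 T cells were told apart by at least 1 UMI of Cd8a or Cd8b1 against at least 1 of Cd4. This gave 146 NK cells, 560 CD8 T cells, 662 CD4 T cells, 493 T cells with neither coreceptor and 3633 microglia. Exactly 1 coreceptor UMI was found in 333 of the CD4 T cells and 75 of the CD8 T cells, so the CD4 T class is the less secure. Microglia held a Cd4 UMI in 1.21% of cells. Genes outside the gate fitted the names in part. Eomes, a transcription factor of NK cells, stood at 228.7 CPM (counts per 1000000 UMIs of the class) in NK, 39.3 in CD8 T and 0.859 in CD4 T cells. Cd40lg, a helper T cell gene, stood at 1.43, 4.95 and 67.9 CPM in the same order. The other genes set to check the CD8 T class were near level with CD4 T cells or lower. Cd27 stood at 136 CPM in CD8 T and 123 in CD4 T cells, Trbc2 at 1789 and 1574, and Cd5 at 134 and 254. NK cells also held T cell receptor transcripts, Trbc2 at 297 CPM (37.7% of cells) and Trdc at 45.7 CPM (16.4%).

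A further 746 cells met marker lists of more than 1 cell type and were kept apart as mixed, and these held 39.0% of all Gzma UMIs and 50.5% of all Gzmb UMIs of the library. Among them, 487 met the microglia list beside the T or NK list, with Gzma at 286 and Gzmb at 406 CPM. Another 188 met only the monocyte list beside the T or NK list. Ly6c2, which is on that list, stood at 1927 CPM in the CD8 T class itself, against 980.4 in the monocyte and macrophage class. That marker is therefore not particular to monocytes, and what the 188 cells are was not tested. These 188 cells held Gzma at 1354 and Gzmb at 2016 CPM, both above the CD8 T class as gated. Only 2.04% of barcodes were called as doublets, below the 6.93% assumed for this loading, and the part of undetected doublets in the mixed cells was not tested. Values for CD8 T cells are therefore also given with the monocyte list not counted for cells with T or NK markers, a choice made after the data were seen, and by clusters built without the 7 genes.

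The 7 genes lie on 5 chromosomes of the mouse genome (build mm10, positions from GENCODE M21), and all are annotated as protein-coding. Gzma (chr13:113093825-113100981) and Gzmk (chr13:113171608-113225908) are both read from the minus strand, with 70.6 kb between them. Gzmb (chr14:56258838-56262260) and Gzmc (chr14:56231441-56234656) are both on the minus strand, 24.2 kb apart. Prf1 is at chr10:61297833-61304680 and Nkg7 at chr7:43437073-43438249, both on the plus strand, and Xcl1 is at chr1:164931644-164935527 on the minus strand. None of the 451 stretches of 50 bases in the last 500 bases of each gene's longest coding transcript occurred in a transcript of another gene, which is the end that a 3' assay reads.

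The 250 bases before the RefSeq start of 4 of the genes are shown because Gzma and Prf1 were higher in NK than in CD8 T cells, Gzmb was near level and Gzmk was lower. They are RefSeq sequences of build GRCm38.p6, written 5′ to 3′ on the strand of the gene, at chr13:113100982-113101231 (Gzma), chr14:56262335-56262584 (Gzmb) and chr13:113180966-113181215 (Gzmk), all minus strand, and chr10:61297586-61297835 (Prf1), plus strand. Capitals mark a RUNX core (ACCACA, or TGTGGT on the other strand), a T-box core (TCACAC or GTGTGA) or a CRE core (TGACGT or ACGTCA). The RefSeq start of Gzmk lies inside the GENCODE span given above, which reaches further upstream, so its window precedes the RefSeq start only. RUNX3, T-bet and Eomes, and ATF and CREB proteins are the factor families known for these letters.
Gzma: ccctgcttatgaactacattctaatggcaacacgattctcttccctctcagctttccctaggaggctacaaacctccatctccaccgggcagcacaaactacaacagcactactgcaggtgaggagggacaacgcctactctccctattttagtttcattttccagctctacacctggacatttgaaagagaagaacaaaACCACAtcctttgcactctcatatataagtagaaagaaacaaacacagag
Gzmb: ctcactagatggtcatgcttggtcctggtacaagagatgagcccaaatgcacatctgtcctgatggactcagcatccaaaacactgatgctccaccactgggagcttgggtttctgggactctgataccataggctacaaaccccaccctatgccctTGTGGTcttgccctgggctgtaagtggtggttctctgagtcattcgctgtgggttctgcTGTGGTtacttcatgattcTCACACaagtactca
Gzmk: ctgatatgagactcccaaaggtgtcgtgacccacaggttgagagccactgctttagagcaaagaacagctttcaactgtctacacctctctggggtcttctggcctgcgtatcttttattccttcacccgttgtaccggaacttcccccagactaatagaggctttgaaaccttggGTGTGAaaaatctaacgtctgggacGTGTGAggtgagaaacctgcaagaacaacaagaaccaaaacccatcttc
Prf1: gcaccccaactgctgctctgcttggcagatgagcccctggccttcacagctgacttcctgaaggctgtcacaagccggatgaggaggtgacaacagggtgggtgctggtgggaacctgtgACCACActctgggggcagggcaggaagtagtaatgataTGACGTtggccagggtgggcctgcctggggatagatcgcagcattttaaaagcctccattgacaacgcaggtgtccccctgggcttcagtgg
The RUNX core was found in 6 of the 7 windows, all but that of Gzmk, and in 14.0% of the 32851 RefSeq windows of the same length. The T-box core was found in 4 of 7 (Gzmb, Gzmk, Nkg7 and Xcl1) against 12.3% of all windows, and the CRE core in 2 of 7 (Gzmc and Prf1) against 6.47%. Gzmk carried 2 T-box cores and no RUNX core, and Gzma carried 1 RUNX core, 50 bases before its start, and neither other motif. The only overlapping matches were the 2 CRE cores of Gzmc. The motifs were chosen with these sequences in view, and a match describes letters, not a bound site.

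Gzma, the gene of granzyme A, stood at 5240.1 CPM in NK cells (5072 to 5413), 529 in CD8 T cells (504 to 555) and 24.9 in CD4 T cells (19.96 to 30.7). A Gzma UMI was found in 78.1% of NK, 29.1% of CD8 T and 7.25% of CD4 T cells. Microglia, not known as a source of granzyme A, had a Gzma UMI in 6.88% of cells at a higher median depth (7996 against 5040.5 UMIs in CD4 T cells), so the CD4 T share of cells is not read as expression. The CD4 T level was above the 7.89 CPM of microglia (6.99 to 8.87), also without its top cell (19.5 CPM), and 5 cells held 50.6% of its 87 UMIs. Within NK cells with Gzma, single cells ran from 118 to 28554 CPM with a median of 5752.

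Gzmb, the caspase-cleaving granzyme, was spread over more classes. Its level was 1557 CPM in NK (1466 to 1652), 981 in CD8 T (947 to 1016), 186 in T cells with neither coreceptor (168 to 206) and 149.8 in CD4 T cells (137 to 163), against 6.88 in microglia. Shares of cells with a Gzmb UMI were 73.3% of NK, 56.8% of CD8 T, 20.8% of CD4 T and 6.33% of microglia. The intervals of T cells with neither coreceptor, T cells with both (169 CPM) and CD4 T cells overlapped between neighbours in that order, and those of NK and CD8 T cells, as gated, stood apart.

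Gzmc was high in NK cells but came from few of them. Its 630 UMIs in NK cells, 901 CPM (832 to 974), lay in 15 of 146 cells, and 5 cells held 77.3% of them. CD4 T (8.02 CPM) and CD8 T cells (5.57) were not apart by their intervals, and in CD4 T cells 1 cell held 78.6% of the 28 Gzmc UMIs. T cells with neither coreceptor stood at 52.5 CPM (42.9 to 63.5), but 1 cell held 91.4% of their 105 UMIs, and without it the level was 4.52 CPM. In microglia Gzmc was at 0.676 CPM.

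Gzmk had the opposite order. It stood at 175 CPM in CD8 T cells (161 to 190), 77.5 in T cells with both coreceptors (56.8 to 103), 37.2 in CD4 T cells (31.1 to 44.2) and 8.58 in NK cells (3.15 to 18.7). A Gzmk UMI was found in 44.3% of CD8 T, 11.9% of CD4 T and 4.11% of NK cells, against 0.853% of microglia. The 566 UMIs of CD8 T cells were spread over 248 cells, and no cell held more than 1.77% of them. No NK cell held more than 1 Gzmk UMI.

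Prf1, the pore-forming protein, stood at 525 CPM in NK (472 to 581), 97.1 in CD8 T (86.7 to 109) and 10.3 in CD4 T cells (7.22 to 14.3), and at 0.620 in microglia. It was detected in 68.5%, 36.1% and 4.23% of NK, CD8 T and CD4 T cells. Nkg7, the granule membrane protein, was near level in both killer classes, at 2194 CPM in NK (2086 to 2307) and 2328 in CD8 T cells (2276 to 2382), with intervals that overlapped, and stood at 414 CPM in CD4 T cells (393 to 436). It was found in 93.2% of NK, 91.1% of CD8 T and 51.4% of CD4 T cells.

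Xcl1, the chemokine, stood at 985 CPM in NK (913 to 1061), 90.3 in CD8 T (80.3 to 101), 53.5 in T cells with neither coreceptor (43.8 to 64.6) and 22.3 in CD4 T cells (17.7 to 27.9). Of its 689 UMIs in NK cells, 212 came from 1 cell, or 30.8%, and without that cell of each class the order of NK over CD8 T cells was kept. In the 31 cells with both T and NK markers Xcl1 stood at 795 CPM (678 to 926), an interval that overlapped that of NK cells. A Xcl1 UMI was found in 61.3% of those cells and 47.3% of NK cells. The receptor gene of Xcl1, Xcr1, had 121 UMIs in 52 cells of the library, with none in CD8 T cells and 2 in NK cells. Among the 6 classes compared it was highest in the dendritic class (46.8 CPM, a UMI in 12 of 65 cells). Xcr1 is itself one of the markers that set the dendritic class, so its place there is not an independent finding.

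**Figure D1:**
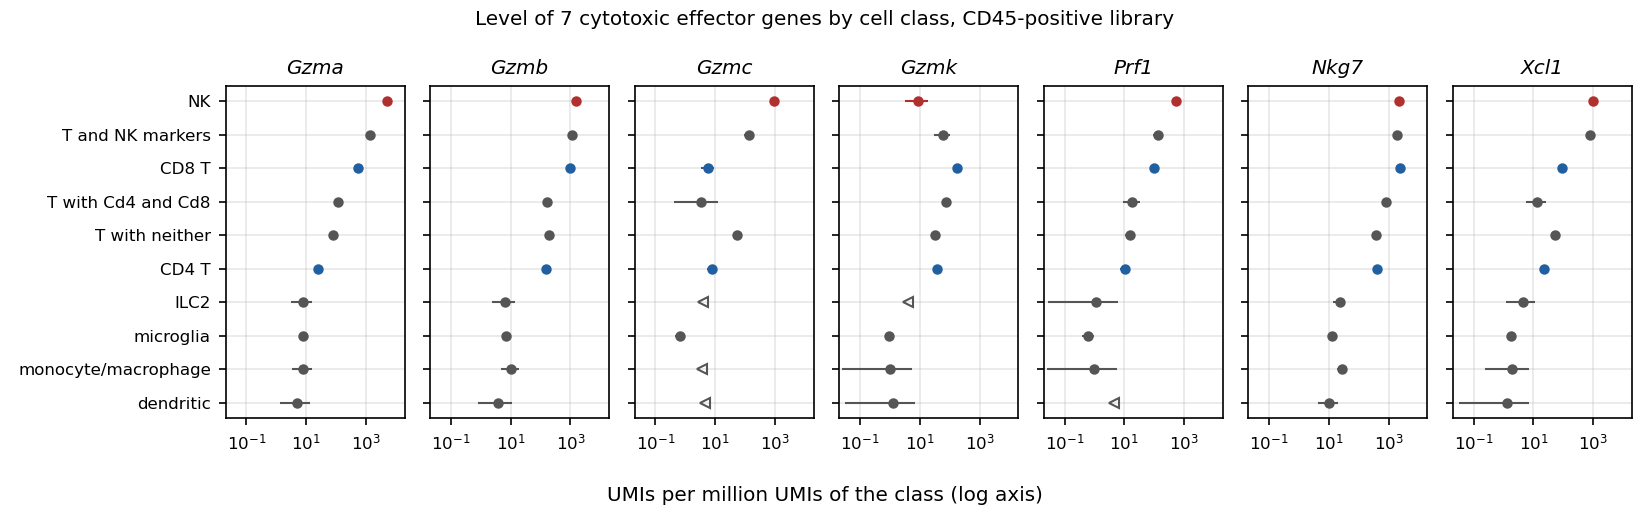
Level of each gene in CPM (log axis) in 10 cell classes of the CD45-positive library. Points are classes (NK red, CD8 T and CD4 T blue), bars are 95% Poisson intervals, and open triangles mark the upper limit where no UMI was found. As gated, Gzma, Gzmc, Prf1 and Xcl1 were highest in NK cells among the classes drawn and Gzmk in CD8 T cells. For Xcl1 the NK interval overlapped that of cells with both T and NK markers. The order of NK and CD8 T cells for Gzmb and Nkg7 turned with the way cells were classed or thinned.

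Between NK and CD8 T cells, 4 of the 7 genes were more than 2-fold higher in NK cells and 1 was more than 2-fold lower, where 8.88% of the 9004 genes with at least 20 UMIs in both classes together were higher and 6.97% lower. Gzma was 9.90-fold higher (9.35 to 10.5), Xcl1 10.9-fold (9.49 to 12.5), Prf1 5.40-fold (4.63 to 6.30) and Gzmc 162-fold (101 to 275), while Gzmk was 20.4-fold lower (9.32 to 55.9). Gzmb was 1.59-fold higher (1.48 to 1.70) and Nkg7 0.942-fold (0.891 to 0.996). The median log2 difference of the 7 was 2.43, against 0.16 over all genes compared. With the monocyte list not counted, Gzma in CD8 T cells was 831 CPM and its log2 difference was 2.62 in place of 3.31, and by clusters it was 1.82. Gzmb turned direction by clusters, from 0.67 to -0.23, where CD8 T cells held 1577 CPM and NK cells 1340.0 CPM, and was 0.12 with the monocyte list not counted. Nkg7 turned from -0.09 to 0.18 at 1000 UMIs per cell. Neither gene is therefore called higher in NK or in CD8 T cells. Xcl1 was 2.68 in place of 3.45 at 1000 UMIs per cell and 2.82 as a mean over cells, and Gzmc was 6.22 in place of 7.34 by clusters.

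Between CD8 T and CD4 T cells, 6 of 7 genes were more than 2-fold higher in CD8 T cells, where 3.52% of 9811 genes were higher and 3.34% lower. The differences were 21.2-fold for Gzma (17.1 to 26.6), 9.42-fold for Prf1 (6.66 to 13.7), 6.55-fold for Gzmb (5.97 to 7.20), 5.62-fold for Nkg7 (5.31 to 5.95), 4.70-fold for Gzmk (3.88 to 5.74) and 4.04-fold for Xcl1 (3.14 to 5.26). The median log2 difference of the 7 was 2.49, against -0.02 over all genes compared. Gzmc, at 18 and 28 UMIs, did not differ beyond counting error (0.694-fold, 0.362 to 1.30). Its direction rested on the 1 CD4 T cell above, and its log2 value moved from -0.53 to 1.34 without the top cell of each class and to 1.03 by clusters. At 1000 UMIs per cell the log2 difference of Xcl1 was 2.91, against 2.02, and with the monocyte list not counted that of Gzma was 5.06, against 4.41.

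Between NK and CD4 T cells, which share the classes of the comparisons above, 6 of 7 genes were over 2-fold higher in NK cells, where 8.79% of genes were higher and 7.99% lower. The median log2 difference was 5.46, against 0.13 over all genes compared. Gzma was 210.3-fold higher, Prf1 50.9-fold, Xcl1 44.1-fold and Gzmb 10.4-fold, and Gzmk was lower, at 0.230-fold (0.0830 to 0.515).

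NK and T cells together were over 2-fold above microglia for 7 of 7 genes, where 15.4% of 13516 genes were higher and 30.6% lower. The folds lay between 74.1 (Gzma) and 124 (Prf1), with a median log2 difference of 6.39 against -0.35 over all genes compared. Over microglia, monocytes and macrophages, dendritic cells, cells with several myeloid lists and ILC2 cells (innate lymphoid cells of the type-2 kind), Gzma lay between 5.06 and 8.00 CPM, Gzmb between 3.79 and 9.99 and Nkg7 between 7.33 and 28.0. Cells thinned to 1000 UMIs held a Gzma UMI in 0 to 2.36% of cells of these classes. The 35 neutrophils, the smallest of the myeloid classes, held 10 Nkg7 UMIs, or 91.7 CPM (44.0 to 169), 5 of them in 1 cell, and 2 Gzmb UMIs (18.3 CPM, 2.22 to 66.3).

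The CD45-negative library held few of these transcripts. All 7 genes were over 2-fold higher in the CD45-positive library, where 16.5% of 18379 genes were higher and 40.9% lower, with a median log2 difference of 6.83 against -0.58 over all genes compared. Leukocyte genes are parted by the sort itself. Among 12817 CD45-negative cells there were 222 Nkg7 UMIs, 131 Gzmb, 36 Gzma, 19 Gzmk, 12 Prf1, 4 Xcl1 and 1 Gzmc UMI. Only 18 of those cells carried T or NK markers, and they held 76.1% of the Nkg7 UMIs, 75.6% of the Gzmb UMIs, 73.7% of the Gzmk UMIs, 44.4% of the Gzma UMIs and 3 of the 12 Prf1 UMIs. The 2 libraries shared 27 barcodes, and leaving these out changed no count of genes past 2-fold.

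The number of the 7 genes found in 1 cell separated the classes. The median was 4 in NK, 3 in CD8 T, 1 in CD4 T cells and 0 in microglia. At least 3 genes were found in 83.6% of NK cells (76.5 to 89.2), 57.1% of CD8 T cells (52.9 to 61.3), 8.61% of CD4 T cells (6.59 to 11.01) and 0.110% of microglia. Depth matters for such shares. After each cell was thinned to 1000 UMIs, leaving out 10 NK, 32 CD8 T and 10 CD4 T cells that were shallower, the shares were 61.8% of NK (53.0 to 70.0), 17.6% of CD8 T (14.5 to 21.1) and 0.920% of CD4 T cells (0.338 to 1.99), with none of 3437 microglia. The order of the 3 lymphocyte classes was the same at both depths. By clusters, with all UMIs, 74.1% of CD8 T and 70.6% of NK cells held at least 3, so the order of these 2 classes turned. The clusters drew in cells that the gate had left out. The largest CD8 T cluster was also deeper than the NK cluster (median 6568 against 4625.5 UMIs), and the cluster shares were not matched for depth.

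**Figure D2:**
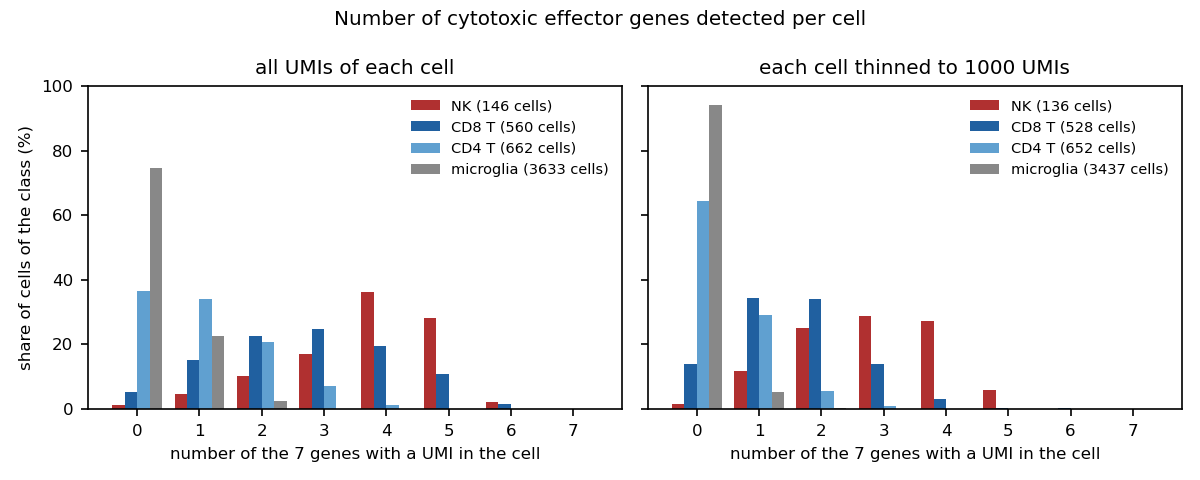
Share of cells (%) of NK, CD8 T, CD4 T cells and microglia by the number of the 7 genes with at least 1 UMI, with all UMIs (left) and with each cell thinned to 1000 UMIs (right). NK cells peak at 4 genes with all UMIs, and most microglia hold none.

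The granzymes were combined differently in NK and CD8 T cells. Of NK cells, 56.8% held Gzma and Gzmb without Gzmk, 17.1% Gzma alone of the 3, 13.0% Gzmb alone, and 6 of 146 held Gzmk, all of them with Gzma. Of CD8 T cells, 26.6% held none of the 3, 17.5% Gzmb alone, 15.5% Gzmb with Gzmk, 14.8% all 3, 11.2% Gzmk alone, and 2.68% Gzma alone. Cells with none of the 3 were shallower (median 3464 UMIs) than CD8 T cells with all 3 (6936), and at 1000 UMIs 50.9% of CD8 T cells held none and 2.27% all 3.

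Within NK cells, Gzmc and Gzma were mostly in different cells. The 15 cells with Gzmc held 3 to 136 Gzmc UMIs each (median 21), and 11 of the 15 held no Gzma UMI; the other 4 held 58, 50, 16 and 7. Of the 131 NK cells without Gzmc, 110 held Gzma, with a median of 20 UMIs. At equal depth, 28.9% of NK cells without Gzma (15.4 to 45.9) and 1.02% of those with Gzma (0.0258 to 5.55) held a Gzmc UMI. The Gzmc cells were deeper than the rest, with a median of 7534 against 4349 UMIs. Gzmb stood at 3530.3 CPM in them against 1072 in the rest, and Xcl1 at 2899.6 against 515. Most Gzmb UMIs of the Gzmc cells lay in single cells with 117, 91, 90 and 77 UMIs. The other Gzmc cells held 0 to 33 Gzmb UMIs each. The Gzmb level without the 4 top cells was not computed, so higher Gzmb is not read as shared by the Gzmc cells. For Xcl1, leaving out the 1 cell with 212 UMIs, which also carried Gzmc, brought 2899.6 down to 1473 CPM, still 2.86-fold above the rest. Prf1 did not differ beyond counting error (544 against 520 CPM, 1.05-fold, 0.8003 to 1.35), and Nkg7 was lower (1066 against 2471 CPM).

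Xcl1 was also found less often in NK cells with Gzma than in those without, but this split shares cells with the one above. Of the 15 Gzmc cells, 11 held no Gzma, and the Gzmc cells held Xcl1 at 2899.6 CPM against 515 in the rest. Whether Xcl1 and Gzma part among NK cells without Gzmc was not tested. At 1000 UMIs, 52.6% of NK cells without Gzma (35.8 to 69.0) and 20.4% of those with Gzma (12.9 to 29.7) held an Xcl1 UMI. NK cells with Xcl1 held Gzma at 3940.3 CPM against 7101 in those without. In the other direction, Gzma came with Nkg7 (86.7% against 65.8% at 1000 UMIs) and Gzmb with Prf1 (52.8%, 40.7 to 64.7, against 28.1%, 17.6 to 40.8), with intervals that overlap in both pairs.

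**Figure D3:**
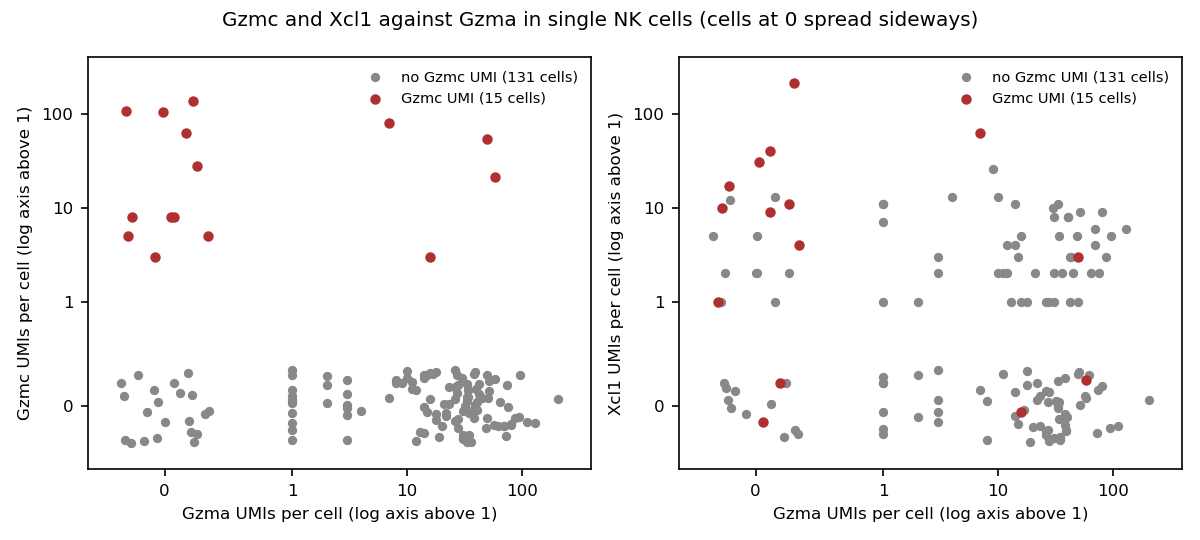
UMIs per single NK cell of Gzmc (left) and Xcl1 (right) against Gzma, both axes logarithmic above 1, with cells at 0 spread sideways. Red points are the 15 cells with a Gzmc UMI and grey points the other 131. Of the red cells, 11 sit at 0 Gzma, while most grey cells hold Gzma.

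Gzma also differed with the number of NK markers a cell carried. It was at 2583 CPM in the 28 NK cells with 2 of the 6 markers, 2702 with 3, 5805 with 4, 9626 with 5 and 6835 with all 6. Without the cell that held most Gzma in each of these groups the levels were 1524, 2404, 5285, 8688 and 6363 CPM, in the same order. Xcl1 gave no order that held: it stood at 2951 CPM with 2 markers and 1309 with 3, but 489 and 1076 without the top cell of each, since 1 cell held 85.5% of the Xcl1 UMIs of the cells with 2 markers. Gzmc lay in 3 of the 28 cells with 2 markers and in 1 cell each of those with 5 and with 6, too few to order. Cells with 2 markers were also the shallowest, with a median of 2257.5 UMIs against 4332.5 to 5320.0 in the others, and the part of depth was not tested.

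The parting of Gzmc from Gzma was not seen in the neighbouring cells that the gate left out. The cluster that held 145 of the 146 NK cells had 127 further cells, most of them with no class (44), mixed (36) or with both T and NK markers (26). Among these, Gzma was found in 8 of 20 cells with Gzmc and in 33 of 107 without, or 40.0% and 30.8%. Gzmb was higher in the cells with Gzmc, at 2574 against 554 CPM, and the part of single cells in this was not tested. Over the whole cluster of 272 cells, 34.3% of cells with Gzmc and 60.3% of those without held Gzma.

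In CD8 T cells, Gzma and Gzmb were found together. At 1000 UMIs, 63.8% of the cells with Gzma (52.2 to 74.2) and 29.2% of those without (25.1 to 33.7) held Gzmb, against 81.6% and 46.6% with all UMIs. Gzmb was also found with Nkg7: 87.4% of cells with Gzmb (81.6 to 91.8) and 72.3% of those without (67.2 to 76.9) held Nkg7 at 1000 UMIs. Pairs of Gzmb with Gzmk and with Prf1 looked linked at full depth only. Gzmk was found in 53.5% of CD8 T cells with Gzmb and 32.2% of those without, but at 1000 UMIs in 14.3% and 15.3%. Prf1 went from 44.7% and 24.8% to 10.4% and 8.96%, with cells with Gzmb having a median of 6251 UMIs and those without 4412.

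**Figure D4:**
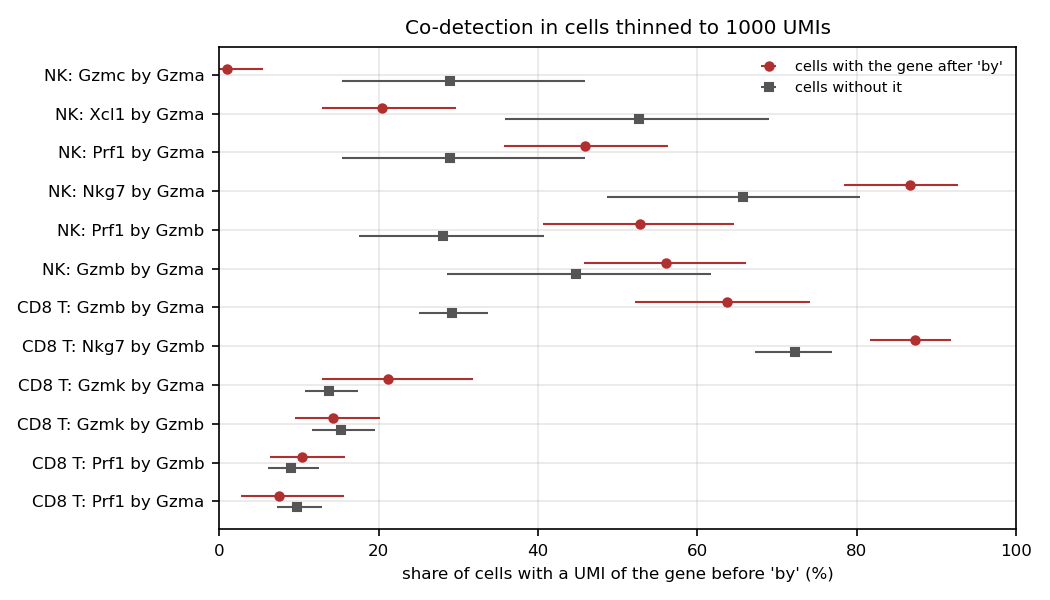
Share of NK or CD8 T cells (%, each cell thinned to 1000 UMIs) with a UMI of the first-named gene, among cells with (red circles) and without (grey squares) the gene after "by". Bars are exact 95% binomial intervals. In NK cells Gzmc and Xcl1 were less often found with Gzma than without it, and the Gzmc cells enter both splits. In CD8 T cells Gzmb was more often found with Gzma.

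CD8 T cells with Gzmb held Gzma at 746 CPM against 97.3 in those without, and the division marker Mki67 at 102 against 17.6 CPM. Those with Gzma held the inhibitory receptor gene Klrg1 at 25.3 against 2.88 CPM, the chemokine Ccl4 at 457 against 177, and interferon gamma, Ifng, at 89.0 against 32.1. Those with Gzmk held Gzma at 784 against 239 CPM, the chemokine Ccl5 at 10584 against 5335 and Eomes at 52.9 against 23.8. These are levels in CPM, and cells with any of these granzymes were deeper than the cells without.

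In CD4 T cells as gated, cells with Nkg7 held more of several other effectors. Of the 662 cells of this class, 333 carried a single Cd4 UMI, and the part of misplaced T cells in this split was not tested. The 340 carriers of Nkg7, against 322 cells without it, held Gzmb at 233 against 44.8 CPM, Xcl1 at 35.3 against 5.85, Ifng at 41.0 against 9.10 and the receptor gene Klrc1 at 41.5 against 4.55. Foxp3, the factor of regulatory T cells, went the other way, at 4.10 against 39.6 CPM. Gzma did not differ beyond counting error (24.6 against 25.3 CPM). At 1000 UMIs, Gzmb was found in 14.4% of the CD4 T cells with Nkg7 (9.52 to 20.5) and 5.65% of those without (3.76 to 8.11).

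Some clusters built without the 7 genes held Gzmb with little Gzma, Gzmk or Prf1. The cluster led by Tnfrsf4 and Foxp3 (74 cells) held Gzmb at 539 CPM, with Nkg7 at 103, Gzma at 4.12, Prf1 at 2.06 and no Xcl1. Its 262 Gzmb UMIs lay in 18 cells. Of these UMIs 1 cell held 34.4% and 5 cells 76.0%, and without the top cell the level was 360.3 CPM. By the gate, the 23 CD4 T cells with a Foxp3 UMI held Gzmb at 214 CPM, but 1 cell held 80.6% of their 36 UMIs. Without that cell the level was 44.9 CPM, against 147 in CD4 T cells without Foxp3. The 2 larger clusters whose most frequent class, mixed and unclassed cells aside, was CD4 T held Gzmb at 194 CPM (702 cells) and 103 CPM (440 cells). In the same order they held Gzma at 38.3 and 43.6, Gzmk at 31.8 and 71.2 and Prf1 at 14.3 and 10.4 CPM. Gzmb above Gzma, Gzmk and Prf1 was therefore not particular to the Foxp3 cluster. The cluster led by Trdc, a gamma-delta T cell receptor gene, and Cd163l1 (104 cells) held Gzmb at 276 CPM and Nkg7 at 229, with Gzma at 21.9, Prf1 at 15.7 and no Gzmk. In it 1 cell held 39.2% of the Gzmb UMIs, and without that cell Gzmb was at 169 CPM. A cluster of 47 cells led by histone and division genes held Gzma at 1759 and Gzmb at 1671 CPM, where the largest CD8 T cluster (643 cells) held 868 and 1565. There 1 cell held 30.2% of the Gzma UMIs and 5 cells 72.5%. Without the top cell of each gene in each cluster the values were 1266 against 840.1 CPM for Gzma and 1331 against 1511 for Gzmb, so the order of Gzmb turned.

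**Figure D5:**
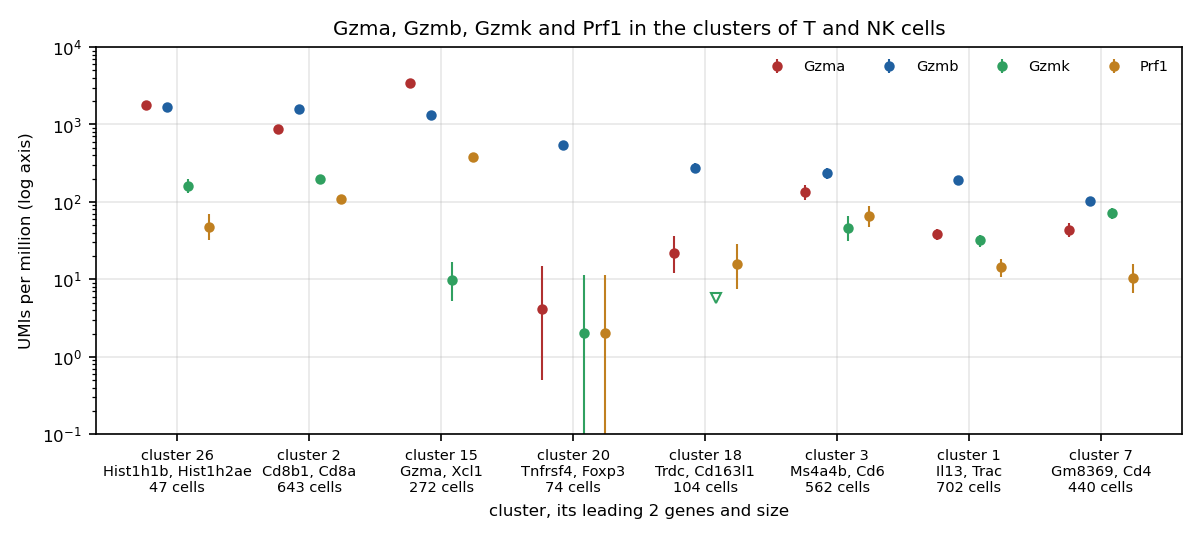
Level (CPM, log axis) of Gzma, Gzmb, Gzmk and Prf1 in the clusters with more Nkg7 or Gzmb than 200 CPM, ordered by Gzmb, with 95% Poisson intervals. The open triangle marks the upper limit of a gene with no UMI. In cluster 20 only Gzmb is high, and in cluster 15 Gzma and Prf1 are high and Gzmk is low.

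The counts of the gene lists below stand against 8.88% of all genes compared that were over 2-fold higher and 6.97% lower in NK than in CD8 T cells (median log2 0.16), and against 3.52% higher and 3.34% lower in CD8 T than in CD4 T cells (median -0.02). In lists of only 3 to 7 genes, a count of 0 or 1 is too small to be told from these shares. Of the other granzymes and lytic granule proteins, 0 of 6 genes with enough UMIs were over 2-fold higher in NK than in CD8 T cells and 1 was lower, Gzmm (2.86 against 16.7 CPM). Gzmm had only 2 UMIs in NK cells and 54 in CD8 T cells (0.171-fold, 0.0202 to 0.649). The list's median log2 difference was 0.31, and 1.09 between CD8 T and CD4 T cells. Gzmg and Gzmn were at 0 in the whole library, and Gzmd and Gzme had 3 and 2 UMIs in it. Gzmf, also with too few UMIs to be counted, had 5 in NK, 2 in CD8 T and 0 in CD4 T cells. Its fold of NK over CD8 T cells was 11.6 (1.89 to 121). Between CD8 T and CD4 T cells 3 of 6 were higher: Gzmm (14.6-fold, 5.38 to 55.4, with 4 UMIs in CD4 T cells), the granzyme-processing regulator Cst7 (5.66-fold) and the protease Ctsw (3.03-fold). Srgn, the proteoglycan that packs granzymes, stood at 1185, 959 and 1003 CPM in NK, CD8 T and CD4 T cells.

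Of 7 granule release genes 1 was over 2-fold higher in NK than in CD8 T cells, Stx11 (2.58-fold, 1.39 to 4.66, list median log2 0.10), and 0 of 7 between CD8 T and CD4 T cells. Of 7 death ligands and effector cytokines, 2 were higher in NK than in CD8 T cells, Ccl3 (7.61-fold) and Ccl4 (3.28-fold), with a list median of 0.55. In CD8 T over CD4 T cells 4 of 7 were higher: Ccl4 (7.49-fold), Ccl5 (4.51-fold), Ccl3 (3.77-fold) and the death ligand Fasl (2.25-fold), with a list median of 1.17. Of the 3 granzyme inhibitors, Serpinb6b and Serpinb9, the inhibitor of granzyme B, were 5.25-fold and 4.64-fold higher in NK than in CD8 T cells and Serpinb1a was 2.21-fold lower with an interval that holds 1 (0.887 to 7.09). Serpinb1a was also lower in CD8 T than in CD4 T cells (0.362-fold).

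Of 7 transcription factors of cytotoxic cells, 3 were higher in NK than in CD8 T cells, Eomes (5.82-fold), Zeb2 (2.85-fold) and Tbx21, which encodes T-bet (2.26-fold), and Hopx was lower (0.423-fold), with a list median of 0.71 against 0.16 over all genes. Between CD8 T and CD4 T cells only Eomes passed, at 45.7-fold (15.3 to 225), with 3 UMIs in CD4 T cells. Runx3 stood at 385 CPM in NK and 339 in CD8 T cells. Of 6 NK receptors and adaptors, 4 were higher in NK than in CD8 T cells, Tyrobp (17.4-fold), Klrk1 (4.39-fold), Klrd1 (2.83-fold) and Klrg1 (2.24-fold, list median 1.33 against 0.16), and 4 in CD8 T than in CD4 T cells, Klrc1 (7.66-fold), Klrk1 (3.94-fold), Klrd1 (3.77-fold) and Klrg1 (2.36-fold, list median 1.58 against -0.02).

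Across the 25 clusters of at least 50 cells, the genes whose log2 level ran most like each of the 7 were ranked by Pearson's r, as a description, since the clusters share 1 library and differ in depth. Nkg7 ran most like Ctsw (r = 0.97), Prf1 (0.94) and Gzmb (0.93), and Prf1 most like Nkg7, Klrc2 (0.94) and Dapk2 (0.93). Gzmb was followed by Nkg7, Ctsw (0.92) and Tbx21 (0.91), and Gzma by Dapk2 (0.90), Kcnj8 (0.89) and Prf1 (0.88). Gzmc ran with the NK receptor genes Klra7 (0.88), Klra1 (0.85) and Klra9 (0.82), and Xcl1 with Samd3 (0.88), Cd160 (0.86) and Klrb1f (0.86). Gzmk ran with Trav13-1 (0.90), a T cell receptor segment, Dapl1 (0.87) and Themis (0.84), all of T cells. Among the 21 pairs of the 7 genes, the highest r was that of Prf1 and Nkg7 (0.94) and the lowest that of Gzmc and Gzmk (0.21).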

How the data were processed

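The deposited values are UMI counts per gene and cell from 3' droplet libraries, made with Cell Ranger 6.1.2 on mm10, per the file headers and the submitters' processing notes; no annotation release or cell-calling setting is given in the sources used here. Cells with at least 500 UMIs, 200 genes and at most 20% mitochondrial UMIs were kept, and doublets called by Scrublet (scanpy 1.11.5) were removed. Classes came from marker lists. UMIs were summed per class as CPM with exact Poisson intervals, ratios had exact conditional binomial intervals and shares exact Clopper-Pearson intervals (scipy 1.17.1). Leiden clusters (resolution 2) were built without the 7 genes. The ratio, gate and thinning code was tested on simulated data. A gene counts as higher or lower past 2-fold. The genes and lists were chosen with earlier results of these data known. All 7 genes are named, as are listed genes past 2-fold between NK and CD8 T or CD8 T and CD4 T cells and the 3 genes most like each. The genes and cells of splits by a detected gene were chosen after their values were seen. The libraries held 76182401 (CD45-positive) and 92691820 (CD45-negative) UMIs.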

Additional observations from a re-analysis of the deposited data

How the results depend on the processing

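The counts of genes past 2-fold stayed within 1.5 times their value in all 11 alternatives run (7 for the comparison of the libraries): 4 of 7 for NK over CD8 T, 6 or 7 of 7 for CD8 T over CD4 T, 6 of 7 for NK over CD4 T and 7 of 7 for both others. The share of cells with at least 3 of the 7 genes depended on depth and on the gate. At 1000 UMIs per cell it was 61.8% of NK, 17.6% of CD8 T and 0.920% of CD4 T cells. By clusters, with all UMIs and not matched for depth, it was 70.6% of NK and 74.1% of CD8 T cells. For CD8 T cells it was 61.4% with a stricter cell filter, 62.9% with a stricter gate and 62.0% with the monocyte list not counted for cells with T or NK markers, an alternative chosen after seeing the data. No paired analysis was possible because each group holds 1 library. Classes of few cells and genes held by a few cells (Gzmc, Xcl1) are the least certain, and cells of 1 library are not replicates, so no interval here covers the spread between mice. The mixed cells, with 8.85% of cells and up to 50.5% of a gene's UMIs, stayed out of the classes as gated; the cluster setting and the monocyte-list setting take in some or all of them. Clusters took the most frequent class of their gated cells, so the CD4 T clusters include 16 cells led by endothelial genes.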
